A study of Homo sapiens with 6 samples.

Results

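Serine synthesis and folate one-carbon metabolism were described through 9 enzyme genes in PC9/GR cells, a human lung cancer line, after knockdown of the long non-coding RNA MYLK-AS1. The genes were chosen by name from the count table, which lists 54261 symbols. All 9 were present and all 9 passed the filter on low counts, as did 15391 symbols of the table. They comprise the serine synthesis enzymes PHGDH, PSAT1 and PSPH, the cytosolic folate enzymes SHMT1 and MTHFD1, and the mitochondrial folate enzymes SHMT2, MTHFD1L, MTHFD2 and ALDH1L2. The control group held 3 libraries of cells given a small interfering RNA (siRNA) labelled si-NC. The knockdown group held 3 libraries of cells given an siRNA against MYLK-AS1. The labels name no other siRNA against MYLK-AS1, so effects of this siRNA and of the loss of MYLK-AS1 cannot be told apart. All 6 libraries came from PC9/GR, so whatever distinguishes that line is shared by both groups, and the siRNA dose and the time of harvest were not given in the sources used here. The series title names the glutamine metabolism of lung cancer cells and their resistance to inhibitors of EGFR, the epidermal growth factor receptor, as its subject.

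Cells make serine from the glycolytic intermediate 3-phosphoglycerate. PHGDH oxidises it, PSAT1 transfers an amino group from glutamate to the product, with release of 2-oxoglutarate, and PSPH removes the phosphate. Serine then gives a carbon unit to tetrahydrofolate through SHMT1 in the cytosol or SHMT2 in the mitochondrion, with glycine as the other product. In the mitochondrion MTHFD2 and MTHFD1L pass that unit on to formate, and ALDH1L2 can instead oxidise it to carbon dioxide. Formate leaves for the cytosol, where the trifunctional MTHFD1 loads it back onto folate for purine and thymidylate synthesis. MTHFD2 is low in most resting adult tissues and high in embryonic and many tumour cells.

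MYLK-AS1, the target of the siRNA, had 20, 16 and 19 reads across control replicates 1 to 3, against 0, 5 and 4 across the knockdown replicates. Library totals ran from 7551303 to 11055408 reads. Of 6 tested markers of lung adenocarcinoma epithelium 1 rose and 4 fell, against 21.3% and 20.7% of all tested genes. KRT19 rose, and KRT8, KRT18, EPCAM and CDH1 fell, CDH1 by 1.11 on the log2 scale (SE 0.16). The whole list summed to 8225 to 9209 CPM (reads of a gene relative to the TMM-scaled library total) in the control. It summed to 4953 to 5469 CPM in the knockdown, and most of the sum was KRT8 and KRT18. NAPSA and NKX2-1 did not exceed 2.28 and 0.913 CPM. EPCAM did not exceed 1.67 CPM. It is usually abundant in epithelial cells, and the counting method was not given in the sources used here, so its count is given as deposited and does not show that its RNA was absent. The 4 leukocyte markers summed to 30.9 to 44.5 CPM in the control and 20.7 to 25.2 CPM in the knockdown, nearly all of it CD14, which fell (log2 fold change -0.71, SE 0.15), while PTPRC and CD3E had 0 reads throughout. The 5 fibroblast markers summed to 21.6 to 28.1 CPM in the control and 27.7 to 34.7 CPM in the knockdown, most of it COL1A1, which did not pass. Among them LUM rose from 0.482 to 3.45 CPM (means of n = 3), and COL1A2 had 0 reads throughout. The 3 endothelial markers summed to between 0.273 and 1.00 CPM. The part of these markers in the results was not tested. Summed CPM of RN7SK, RMRP, RN7SL1 and RN7SL2, short RNAs without a poly(A) tail, was 16.6 to 18.7 in the control, against 82.5, 108 and 423 across knockdown replicates 1 to 3. Whether repeats are separate cultures is not in the labels, so a p-value here reflects the spread among these libraries only, and that spread may be technical. In bulk RNA, fewer cells expressing a gene and less of its RNA per cell cannot be told apart.

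In the knockdown 1 of the 9 enzymes rose and 5 fell, and 3 did not pass (edgeR's quasi-likelihood test, adjusted p under 0.05, with all tested genes in the adjustment). PSAT1 was the member that rose. PHGDH, SHMT1, MTHFD1, MTHFD1L and MTHFD2 fell, and PSPH, SHMT2 and ALDH1L2 did not pass. Of all tested genes 42.0% passed, 21.3% upward and 20.7% downward. The 6 calls among 9 members are to be read against that background. Control and knockdown CPM did not overlap for 6 of the 9 members, against 52.2% of all tested genes. The median log2 fold change of the 9 was -0.29, against -0.000504 for all tested genes. Only MTHFD2 changed by more than 2-fold among the 9.

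**Figure D1:**
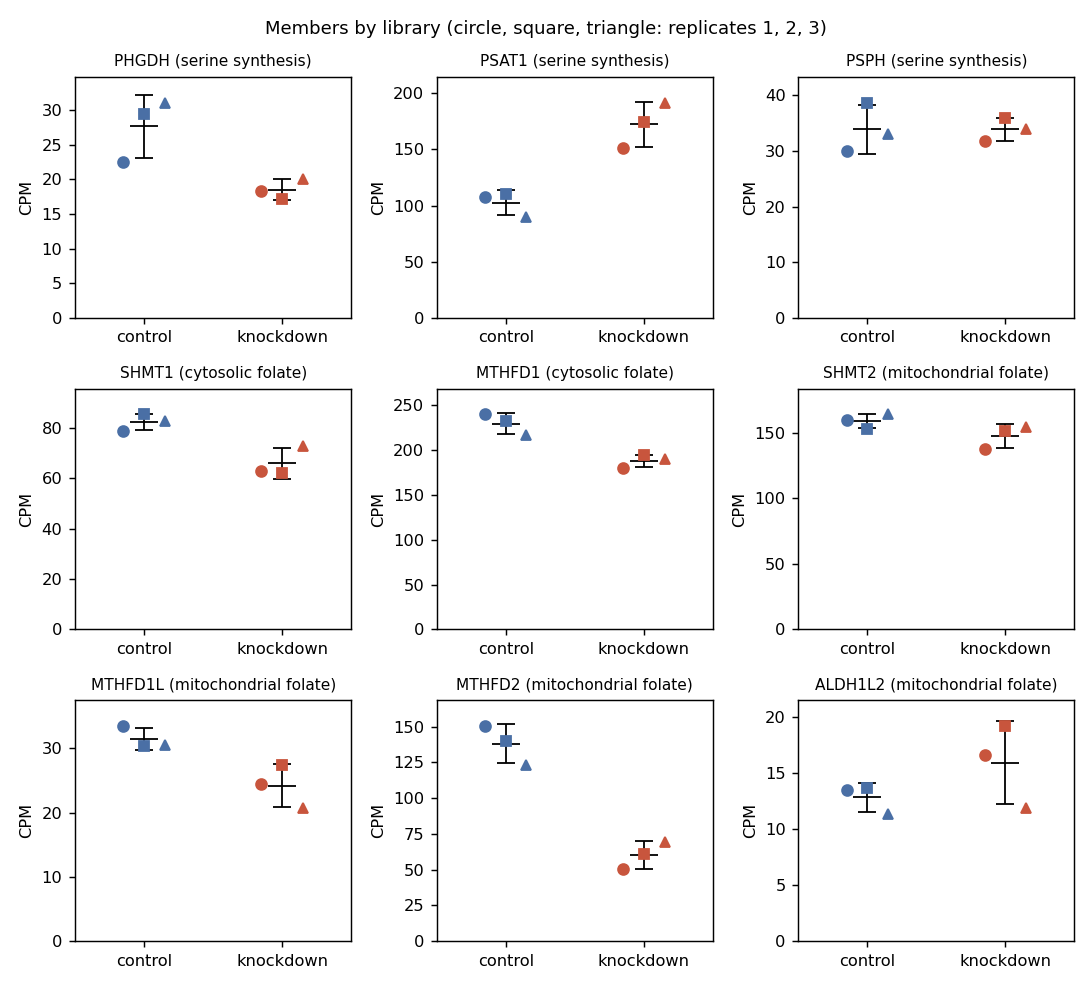
Level of each of the 9 enzymes in CPM (y axis, from 0) in the 3 control and the 3 knockdown libraries (x axis), with bars for the mean and SD of each group. PSAT1 is higher in every knockdown library, PHGDH, SHMT1, MTHFD1, MTHFD1L and MTHFD2 are lower, and the groups overlap for PSPH, SHMT2 and ALDH1L2.

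The 3 steps of serine synthesis did not move together. PSAT1, the aminotransferase step, stood at 107, 111 and 89.7 CPM across control replicates 1 to 3, against 151, 175 and 191 CPM across the knockdown replicates. Every knockdown library lay above every control library. Its mean rose from 103 ± 11.2 to 172 ± 20.2 CPM (SD of n = 3 for both), a log2 fold change of 0.75 (SE 0.11, edgeR adjusted p = 3.08e-05), or 1.68-fold. Of all tested genes 90.95% had a lower log2 fold change. PHGDH, the dehydrogenase that commits carbon to the pathway, stood at 22.5, 29.4 and 31.0 CPM in the control and at 18.4, 17.1 and 20.1 CPM in the knockdown. The groups did not overlap, but control replicate 1 lay closer to the knockdown than the other controls did. Its log2 fold change was -0.58 (SE 0.15, edgeR adjusted p = 0.00454), and it kept its call without control replicate 3, where the change was least (-0.49). PSPH, the phosphatase of the last step, stood at 30.03, 38.6 and 33.0 CPM in the control and at 31.8, 36.0 and 34.0 CPM in the knockdown. Here the knockdown libraries lay within the range of the controls, and the 95% interval of the log2 fold change was -0.27 to 0.27 (adjusted p = 0.992).

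Because the members differ in direction, the ratio of PHGDH to PSAT1 reads within a library shifted further than either gene. On the log2 scale it was -2.25, -1.91 and -1.53 across control replicates 1 to 3, against -3.04, -3.35 and -3.25 across the knockdown replicates. A ratio of 2 genes in 1 library does not depend on how that library is scaled. The knockdown mean was lower by 2.49-fold, without overlap of the groups. That lack of overlap, and the exact p of this ratio, follow from the 2 genes, which lay apart in opposite directions. They add no evidence to the gene results. The ratio of PSPH to PSAT1 was lower as well, with a difference of -0.74 on the log2 scale and no overlap. An exact two-sided permutation test over the libraries gave p = 0.1 for each, the smallest that 3 against 3 can give, and 0.12 after Benjamini-Hochberg adjustment over the 6 ratios computed.

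PSAT1 has 4 annotated pseudogene copies in the table, to which a share of its reads could have been assigned or from which reads could have come. PSAT1P1 and PSAT1P3, those with enough reads to be tested, had means of 1.19 and 1.98 CPM in the control. PHGDH (ENSG00000092621.12) is found on chromosome 1 from 119648411 to 119744226 (plus strand; GRCh38, GENCODE 29). PSAT1 (ENSG00000135069.13) is found on the plus strand of chromosome 9, from 78297143 to 78330093, and PSPH (ENSG00000146733.13) on the minus strand of chromosome 7, from 56011051 to 56051604. No annotated exon of another gene overlaps the principal transcripts of these 3 genes.

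The cytosolic folate enzymes both fell by a small amount. MTHFD1, which interconverts formate and the carbon-carrying folates, stood at 240, 233 and 216 CPM across control replicates 1 to 3, against 180, 194 and 190 CPM across the knockdown replicates. All control libraries were above all knockdown libraries. The log2 fold change was -0.29 (SE 0.09, edgeR adjusted p = 0.0132), or 1.22-fold lower. SHMT1, the cytosolic serine hydroxymethyltransferase, stood at 79.0, 85.4 and 82.7 CPM in the control and at 62.8, 62.1 and 72.9 CPM in the knockdown. Its groups did not overlap either, with knockdown replicate 3 nearest to the control. The log2 fold change was -0.32 (SE 0.10, edgeR adjusted p = 0.0177).

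Both of these calls were lost in 3 of the 6 fits with 1 library left out. MTHFD1 was no longer past the threshold without control replicate 1 (adjusted p = 0.0597), control replicate 2 (0.0551) or knockdown replicate 1 (0.0563). SHMT1 was not past it without control replicate 2 (adjusted p = 0.0805), knockdown replicate 1 (0.0653) or knockdown replicate 2 (0.0939). The direction was kept in each case. MTHFD1 (ENSG00000100714.15) is found on the plus strand of chromosome 14, from 64388031 to 64463457, and SHMT1 (ENSG00000176974.19) on the minus strand of chromosome 17, from 18327860 to 18363563. Exons of SMCR8 on the opposite strand cover 7.43% of the SHMT1 principal transcript. The strand setting of the counting was not given in the sources used here, so reads of such overlaps cannot be told apart. SMCR8 rose (log2 fold change 0.39, SE 0.11), the opposite direction to SHMT1. ZBTB25, whose exons cover 5.68% of the MTHFD1 transcript on the opposite strand, had 34 to 105 reads a library, against 1389 to 2417 for MTHFD1. It fell (log2 fold change -0.75, SE 0.24), the same direction as MTHFD1. The antisense gene AL122035.2 covers 5.77% of the MTHFD1 transcript. The pseudogene copy MTHFD1P1 averaged 6.65 CPM in the control.

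**Figure D2:**
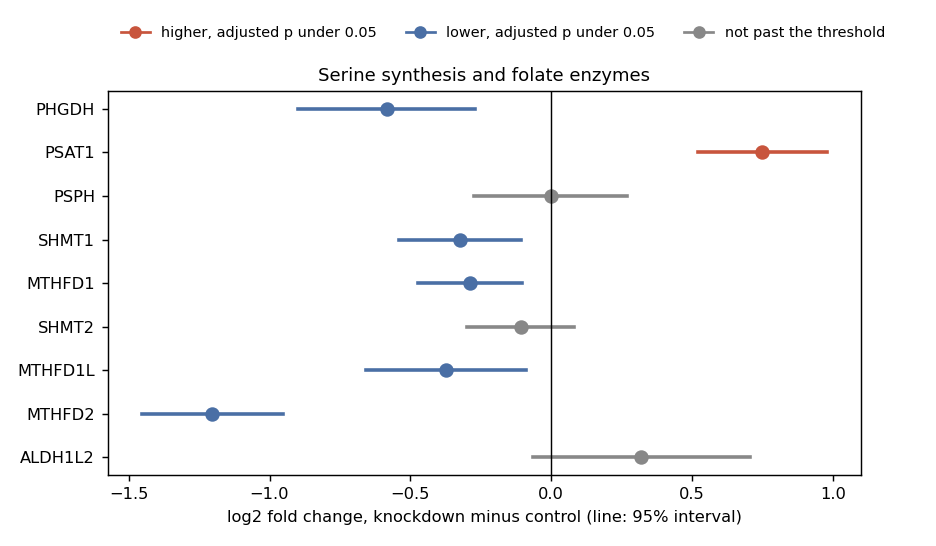
Log2 fold change of the 9 enzymes, knockdown minus control (x axis), with 95% intervals. Genes are grouped as serine synthesis, cytosolic folate and mitochondrial folate enzymes (y axis). MTHFD2 lies farthest to the left at -1.20 and PSAT1 farthest to the right at 0.75, while the intervals of PSPH, SHMT2 and ALDH1L2 cross 0.

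The mitochondrial enzymes parted from each other. MTHFD2, the mitochondrial dehydrogenase and cyclohydrolase, stood at 150, 140 and 123 CPM in control replicates 1 to 3 and at 50.1, 60.8 and 69.5 CPM in knockdown replicates 1 to 3. The lowest control library lay far above the highest knockdown library. The mean fell from 138 ± 13.6 to 60.1 ± 9.69 CPM (SD of n = 3 for both), a log2 fold change of -1.20 (SE 0.12, edgeR adjusted p = 4.8e-07), or 2.30-fold lower. Of all tested genes 5.39% had a lower log2 fold change. It passed in each of the 6 fits with 1 library left out, with log2 fold changes from -1.31 to -1.08. Its partner in the same branch, SHMT2, the mitochondrial serine hydroxymethyltransferase, stood at 160, 153 and 164 CPM in the control and at 138, 151 and 154 CPM in the knockdown. The groups overlapped, and the 95% interval of the log2 fold change was -0.30 to 0.08 (adjusted p = 0.356).

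MTHFD1L, the monofunctional synthetase that releases formate, stood at 33.5, 30.4 and 30.5 CPM in the control and at 24.4, 27.5 and 20.7 CPM in the knockdown. The groups did not overlap, and knockdown replicate 3 was the lowest library. The log2 fold change was -0.37 (SE 0.14, edgeR adjusted p = 0.0343). It was not past the threshold without control replicate 1 (adjusted p = 0.117), control replicate 2 (0.0706), knockdown replicate 1 (0.072) or knockdown replicate 3 (0.116, log2 fold change -0.27). ALDH1L2, the mitochondrial formyltetrahydrofolate dehydrogenase, stood at 13.5, 13.7 and 11.4 CPM in the control and at 16.6, 19.2 and 11.9 CPM in the knockdown. Knockdown replicates 1 and 2 were above every control and knockdown replicate 3 was within them. Over all libraries the log2 fold change was 0.32 (95% interval -0.06 to 0.70, adjusted p = 0.172). Without knockdown replicate 3 it was 0.49 with an adjusted p of 0.0306. Knockdown replicate 3 is also the library with the highest summed level of short RNAs, 423 CPM, and the smallest total, and the part of either in these values was not tested.

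**Figure D3:**
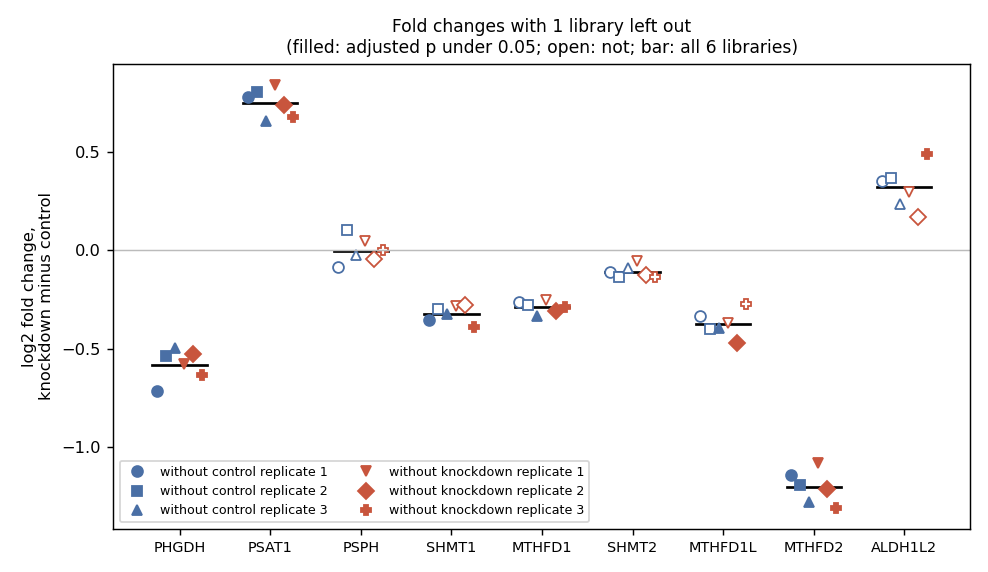
Log2 fold change of each of the 9 enzymes (y axis, knockdown minus control) when 1 library at a time is left out, with a bar for the fit on all 6. Filled symbols are past the adjusted p of 0.05. PSAT1, PHGDH and MTHFD2 are filled in all 6 fits, MTHFD1 and SHMT1 in 3, MTHFD1L in 2 and ALDH1L2 in 1.

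The ratios of mitochondrial to cytosolic enzymes differed in direction between pairs. MTHFD2 to MTHFD1, read as a log2 ratio of reads, was -0.67, -0.73 and -0.81 across control replicates 1 to 3, against -1.84, -1.67 and -1.45 across the knockdown replicates. The mean difference was -0.92, without overlap, so that MTHFD2 was lower relative to MTHFD1 as well as to the library total. SHMT2 to SHMT1 was 1.02, 0.85 and 0.99 in the control and 1.13, 1.29 and 1.08 in the knockdown. This ratio was higher by 0.21, also without overlap. SHMT2 itself was lower on average (log2 fold change -0.11, no call), and SHMT1 fell (-0.32). ALDH1L2 to MTHFD1 was higher by 0.57 without overlap, with knockdown replicate 3 (-3.99) close to the highest control (-4.08). In CPM the groups of ALDH1L2 itself overlapped (log2 fold change 0.32, no call), and MTHFD1 fell (-0.29). MTHFD1L to MTHFD1 differed by -0.10, the groups overlapped, and without knockdown replicate 3 the sign turned (0.015). Exact two-sided permutation p-values were 0.1 for the first 3 of these ratios and 0.7 for the last (0.12 and 0.7 after adjustment over the 6 ratios), in a design that cannot go below 0.1.

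**Figure D4:**
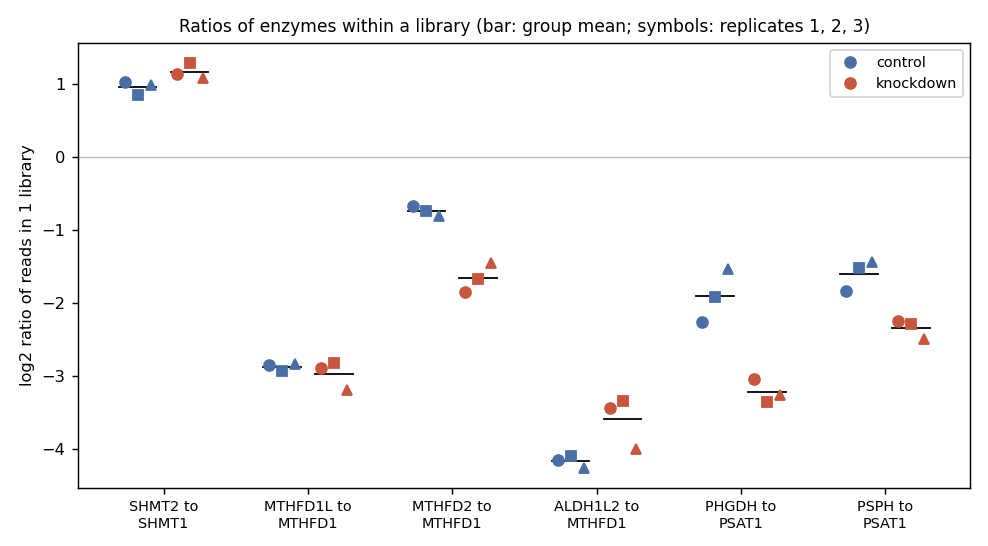
Log2 ratio of the reads of 2 enzymes within each library (y axis) for the 6 ratios computed (x axis), with a bar for the mean of each group. The knockdown libraries lie apart from the controls in 5 ratios, and the groups overlap for MTHFD1L to MTHFD1. The share of other gene pairs whose ratios lie apart was not computed. Of single tested genes 52.2% did not overlap in CPM.

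Levels can be compared between genes only per length, here as CPM per kilobase of the principal transcript in GENCODE 29. In the control MTHFD1 was the most abundant of the 9 at 73.2 ± 3.84 (SD, n = 3), followed by SHMT2 at 62.8 ± 2.16 and PSAT1 at 46.9 ± 5.13. SHMT1 followed at 33.4 ± 1.30 and MTHFD2 at 31.0 ± 3.06, and the libraries of these neighbours overlapped. PSPH stood at 15.6 ± 2.01, PHGDH at 10.7 ± 1.76, MTHFD1L at 8.73 ± 0.483 and ALDH1L2 at 1.70 ± 0.171, with overlap between PHGDH and MTHFD1L. Within serine synthesis PHGDH was thus the least abundant step in every library. In the knockdown PSAT1 stood first at 78.8 ± 9.22 CPM per kilobase, above MTHFD1 at 59.9 ± 2.27 and SHMT2 at 58.3 ± 3.53, which overlapped each other. MTHFD2 stood at 13.5 ± 2.18 there, overlapping PSPH at 15.6 ± 0.959. These levels assume that reads come from the whole principal transcript.

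SHMT2 (ENSG00000182199.10) is found on the plus strand of chromosome 12, from 57229327 to 57234935, MTHFD1L (ENSG00000120254.15) on the plus strand of chromosome 6, from 150865549 to 151101887, and ALDH1L2 (ENSG00000136010.13) on the minus strand of chromosome 12, from 105019784 to 105084577. The antisense gene AC137834.2 covers 12.4% of the SHMT2 principal transcript. Exons of C12orf45 on the opposite strand cover 1.92% of the ALDH1L2 transcript, and C12orf45 rose (log2 fold change 0.62, SE 0.16). MTHFD2 (ENSG00000065911.11) is found on the plus strand of chromosome 2, from 74198562 to 74217565. Exons of SLC4A5 on the opposite strand cover 29.7% of its principal transcript, and those of AC006030.1 cover 6.62%. SLC4A5 had 11 to 39 reads a library, against 509 to 1454 for MTHFD2. MTHFD2 also has 7 annotated pseudogene copies in the table. MTHFD2P7, the one with enough reads to be tested, averaged 2.88 CPM in the control against 1.80 CPM in the knockdown (adjusted p = 0.13).

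The 3' untranslated region (UTR) of MTHFD2 was searched for the bases AGCTTA, a word that earlier work on these same data had found more often among lower genes, so its presence is a description only. Of the 9 members MTHFD1, MTHFD2 and ALDH1L2 hold it in their longest annotated 3' UTR, against 29.6% of 11581 searched genes. They are the only members whose searched 3' UTR has at least 3000 bases, and 60.6% of searched genes of that length hold the word. MTHFD2 holds it at 3 positions, which 3.07% of the searched genes do, and 11.4% of those with a 3' UTR of at least 3000 bases. Its 3' UTR is 3323 bases long. The longer word CAGCTTAA is in none of the 9, against 3.34% of searched genes. The sites of the most strongly lowered member are shown with AGCTTA in capitals, 5′ to 3′ on the plus strand of GRCh38.
MTHFD2 site at chr2:74214359-74214388: gtatttattgaaAGCTTAaatgggtgggtg
MTHFD2 site at chr2:74215939-74215968: tgccaagctaggAGCTTAatctgtaaaata
MTHFD2 site at chr2:74216175-74216204: taagtgacgtatAGCTTAtgtctctaatcc
Of the other members that hold the word, MTHFD1, with 1 site, fell by 0.29 on the log2 scale. ALDH1L2, with 2 sites, had a log2 fold change of 0.32 that did not pass. The MTHFD1 site was read from a transcript that is not its principal one. The same holds for the searched 3' UTRs of PHGDH, PSPH, SHMT1, SHMT2 and MTHFD1L. PHGDH, SHMT1 and MTHFD1L fell and hold no site in their longest annotated 3' UTR, which is shorter (1611, 1229 and 574 bases). A part of this word in the change of any member was not tested.

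ATF4 and MYC are transcription factors known to act on genes of this pathway, and both rose. ATF4, which drives amino acid synthesis genes under stress, stood at 345, 314 and 394 CPM across control replicates 1 to 3, against 450, 454 and 461 CPM across the knockdown replicates (log2 fold change 0.37, SE 0.09, edgeR adjusted p = 0.00413). MYC had a log2 fold change of 0.59 (SE 0.09). Of 10 tested genes in a list of ATF4 and its targets outside the pathway, 7 rose and 3 fell, against 21.3% and 20.7% of all tested genes, with a median log2 fold change of 0.56. TRIB3, a pseudokinase induced by ATF4, rose (1.06, SE 0.10), as did the amino acid transporter subunits SLC3A2 (0.90, SE 0.09) and SLC7A11 (0.71, SE 0.11), and the transcription factor CEBPB fell (-1.36, SE 0.12). PSAT1 moved in the direction of the median of that list. PHGDH and MTHFD2, which are known ATF4 targets too, moved in the other. Of the remaining members SHMT1, MTHFD1 and MTHFD1L fell, and PSPH, SHMT2 and ALDH1L2 did not pass. The part of ATF4 in any of these changes was not tested.

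Promoter sequence from RefSeq (GRCh38.p14), 250 bases before to 50 after a start, was found for 6 of the 9 members, namely PHGDH, PSAT1, SHMT1, MTHFD1, MTHFD1L and MTHFD2. The core of the C/EBP-ATF response element, TGATGNAA on either strand, was found for MTHFD1L alone among these 6, in 3 of its 4 windows, all 3 holding the same site, where the other 5 members had 1 window each. It was in 3.62% of all 35116 windows, in at least 1 window of 4.46% of all genes and of 11.3% of the 319 genes with 4 windows. The E-box CACGTG, bound by MYC and related factors, was in 3 of the 4 windows of MTHFD1L and in the window of MTHFD1, against 7.26% of all windows, 8.77% of all genes and 24.1% of the genes with 4 windows. MTHFD1L and MTHFD1 fell while ATF4 and MYC rose. The MTHFD1L call was lost in 4 and the MTHFD1 call in 3 of the 6 fits with 1 library left out. A part of these motifs, or of ATF4 and MYC, in the fall of either gene was not tested. The sequences are shown as a description, with the motif in capitals, 5′ to 3′ on the plus strand.
MTHFD1L at chr6:150866346-150866375: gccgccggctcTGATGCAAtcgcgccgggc
MTHFD1L at chr6:150866320-150866349: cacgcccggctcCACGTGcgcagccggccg
MTHFD1 at chr14:64388326-64388355: ccagtccctaagCACGTGggttgggttgtc
A match in letters does not show binding, and a window without a match says only that these letters are not in it.

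The other genes of the pathway, taken from 5 lists with 37 symbols, gave 27 tested genes, of which 11 rose and 4 fell. Their median log2 fold change was 0.31. The counts of this list and of those that follow stand against 21.3% of all tested genes that rose and 20.7% that fell. For folate uptake and retention 2 of 5 tested genes rose and the other 3 did not pass the threshold. SLC25A32, the carrier that brings folate into the mitochondrion, stood at 19.5, 20.4 and 17.7 CPM in control replicates 1 to 3 and at 47.3, 42.9 and 47.2 CPM in knockdown replicates 1 to 3. The groups lay far apart, and the log2 fold change was 1.26 (SE 0.13, edgeR adjusted p = 5.93e-07), opposite in sign and close in size to that of MTHFD2. SLC19A1, the reduced folate carrier of the cell surface, rose (0.65, SE 0.16).

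Among the 3 tested genes of other folate interconversion 1 rose and 2 fell. MTHFD2L, the paralog of MTHFD2, had 58, 54 and 61 reads across control replicates 1 to 3, against 30, 30 and 28 across the knockdown replicates and fell (-0.84, SE 0.25, edgeR adjusted p = 0.012). MTHFD2L and MTHFD2 were thus both lower. MTHFS, which returns 5-formyl folate to use, fell too (-1.11, SE 0.31). MTFMT, which formylates the initiator methionyl-tRNA of mitochondria, rose (0.45, SE 0.15).

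Of the 4 tested enzymes that use folate carbon units 1 rose and 1 fell. GART, a trifunctional enzyme of purine synthesis, rose from 65.8 ± 1.70 to 92.9 ± 6.52 CPM (SD of n = 3 for both; log2 fold change 0.50, SE 0.10). TYMS, the thymidylate synthase, stood at 145, 146 and 148 CPM in the control and at 72.1, 77.8 and 88.5 CPM in the knockdown, a log2 fold change of -0.88 (SE 0.10, edgeR adjusted p = 1.84e-06). TYMS is expressed with DNA replication, and 10 of 12 proliferation genes fell, led by TOP2A (-1.21, SE 0.09), CCNB1 (-1.25, SE 0.09), PLK1 (-1.25, SE 0.09) and MKI67 (-1.65, SE 0.14). Their summed level was 2732 to 3092 CPM in the control and 1470 to 1619 CPM in the knockdown, and the part of this in the fall of TYMS and the 5 lowered members was not tested.

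In the methionine cycle and transsulfuration 2 of 5 tested genes rose and the other 3 did not pass the threshold. MAT2A, the methionine adenosyltransferase that makes S-adenosylmethionine, rose from 154 ± 17.5 to 299 ± 8.22 CPM (SD of n = 3 for both; log2 fold change 0.96, SE 0.10, edgeR adjusted p = 5.99e-07), and its regulatory subunit MAT2B rose by 0.34 (SE 0.10). AHCY was listed at 0 to 3 reads a library and was not tested. It is usually abundant in cultured cells, so with the counting method not given these reads do not show that the gene is silent. For serine and glycine 5 of 10 tested genes rose and 1 fell. SFXN1, the carrier of serine into the mitochondrion, rose from 144 ± 9.02 to 212 ± 15.8 CPM (0.55, SE 0.09), and its relative SFXN3 by 0.30 (SE 0.10). The glycine transporter SLC6A9 (0.85, SE 0.21), the serine dehydratase-like SDSL (0.66, SE 0.12) and DLD (0.53, SE 0.09), a subunit shared by the glycine cleavage system and other dehydrogenase complexes, rose too. AMT, the aminomethyltransferase of glycine cleavage, fell, from 17 to 19 reads a library in the control to 3 to 6 in the knockdown (-2.05, SE 0.45).

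**Figure D5:**
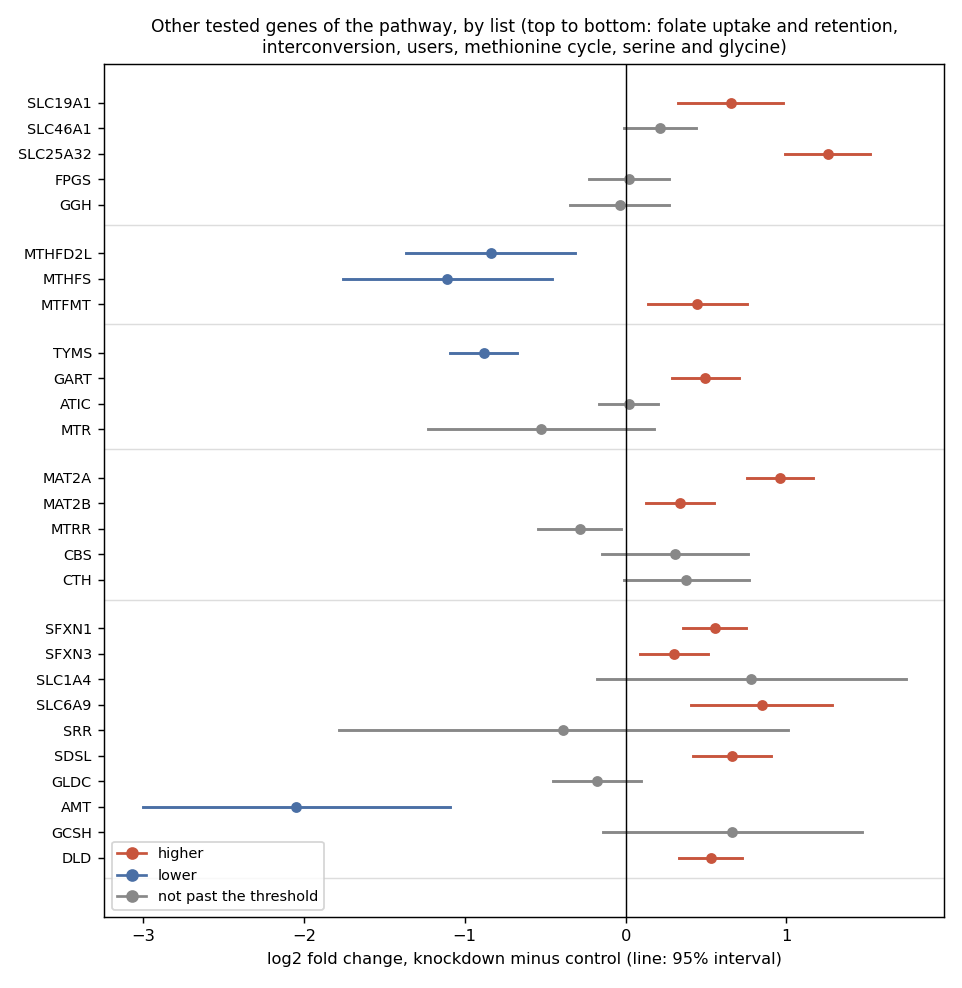
Log2 fold change of the 27 other tested pathway genes, knockdown minus control (x axis), with 95% intervals, grouped by list (y axis). The carriers SLC25A32, SLC19A1 and SFXN1 and the enzyme MAT2A lie to the right, and TYMS, MTHFS, MTHFD2L and AMT to the left.

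The mitochondrial carriers of serine and of folate, SFXN1 and SLC25A32, thus rose while MTHFD2, which acts on folates in that compartment, fell. Other mitochondrial genes of the pathway differed among themselves. MTFMT was past the threshold upward, MTHFD2L and MTHFD1L were past it downward, and SHMT2 and ALDH1L2 were not past it. The MTHFD1L call was lost in 4 of the 6 fits with 1 library left out. Of the glycine cleavage genes, DLD was past the threshold upward and AMT downward. Summed over the members, reads of serine synthesis enzymes went from 164 ± 12.9 to 225 ± 22.2 CPM (SD of n = 3 for both), without overlap and carried by PSAT1. Those of the cytosolic folate enzymes went from 312 ± 11.3 to 254 ± 9.96 CPM and those of the mitochondrial ones from 342 ± 14.5 to 248 ± 16.8 CPM, both without overlap. Most of the mitochondrial difference was that of MTHFD2, from 138 to 60.1 CPM, while ALDH1L2 was higher on average (log2 fold change 0.32, no call). These sums are descriptions, and weigh long and abundant transcripts most.

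For the likeness of patterns, log2 CPM over the 6 libraries was compared with that of PSAT1 and of MTHFD2 among 9490 other genes at a mean of at least 10 CPM. The genes most like PSAT1 were CHST10 (Pearson r = 0.998), PPAT (0.998) and UBA6 (0.998). Those most like MTHFD2 were SSRP1 (0.998), ACTR2 (0.998) and SQLE (0.997), which fell by 0.47, 0.59 and 0.55 on the log2 scale. With 2 groups of 3 libraries such values are easily reached: 768 genes had an r over 0.95 with PSAT1 and 467 with MTHFD2, so the likeness sets these genes little apart.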

How the data were processed

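RNA of 3 control and 3 MYLK-AS1 knockdown samples of PC9/GR was taken up in Trizol, and libraries followed an Ion Proton RNA-Seq protocol, per the labels. As deposited by the authors, the values are raw counts, with 1 column a library. Per the submitters' processing notes the genome build was GRCh38. Aligner, counter, annotation and strand setting were not given in the sources used here. Columns were matched to samples by title.

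Counts were fitted with edgeR 4.0.16 in R 4.3.3 (filterByExpr, TMM factors, robust quasi-likelihood fit, two-sided F test), with Benjamini-Hochberg adjustment over 15391 genes at a threshold of 0.05. The SE is the log2 fold change divided by the square root of F, an approximation, and the 95% intervals use it. Ratios took 0.5 reads added to each gene. Positions, principal transcripts and 3' UTRs came from GENCODE 29 and promoters from RefSeq. Replicates differed by more than sampling noise (chi-square per degree of freedom of at least 2.38 for each pair within a group).

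The 9 members and the gene lists were chosen with earlier results of these data known, and 3 pathway genes are not reported here. All members are named, with other pathway genes past the threshold, SFXN1, SLC25A32, SLC19A1, TYMS, MTHFD2L, ATF4 and MYC, and the 4 genes of lowest p of the ATF4 and proliferation lists. The overlapping genes SMCR8, ZBTB25, C12orf45, SLC4A5, AC137834.2, AC006030.1 and AL122035.2 were added from the annotation. Alternatives were RLE, upper quartile or no factors, no filter, 5 CPM in 3 libraries, DESeq2 1.42.0, limma-voom (limma 3.58.1), each library left out, the repeat number as a block, other thresholds and 1 read added in ratios. On counts simulated for these 15391 genes recovery was 17 of 67 for true log2 changes of 0.5, 49 of 67 for those of 1 and 60 of 66 for those of 2, with 8 false among 134 calls. Far fewer genes changed there than passed in the data, so these rates do not carry over to the real fit.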

Additional observations from a re-analysis of the deposited data

How the results depend on the processing

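The count of 6 members past the threshold was the same with RLE, upper quartile or no factors, without filtering or with at least 5 CPM in 3 libraries, by DESeq2 and limma-voom, and at a threshold of 0.1, and it was 3 at a threshold of 0.01. With 1 library left out it ranged from 3 to 6. It was 3 without control replicate 2 (PSAT1 up, PHGDH and MTHFD2 down) and 3 without knockdown replicate 1. Other pathway genes past the threshold numbered 11 to 17 over all alternatives, against 15, and all genes 4368 to 7630, against 6457. Of 126 refitted log2 fold changes of members 10 lost their call and 1 gained it, each with 1 library left out. With the repeat number as a block, 6 members, 15 other pathway genes and 6521 of all genes passed, and no member's call changed. Whether the numbers pair the samples cannot be told from the counts. Deviations of same-numbered libraries from their group means correlated weakly, at -0.052, 0.0778 and 0.0636. Control replicates 2 and 3 each correlated best with the knockdown library of the same number. Control replicate 1 correlated best with knockdown replicate 2 (0.069). Differences of ratios within repeat numbers are the same means, with an exact sign-flip p no lower than 0.25. With 1 library left out the difference in MTHFD1L to MTHFD1 (-0.10) ran from -0.17 to 0.015, turning sign without knockdown replicate 3, and the other 5 ratio differences kept their sign. In simulated counts with these depths, 17 of 67 genes given a change of 0.5 (log2) were recovered. That simulation gave 134 calls, against 6457 in the data. Its adjusted threshold thus asked for a lower p, and its recovery does not carry over to the data. Members without a call are not shown to be unchanged, since their 95% intervals, such as -0.30 to 0.08 for SHMT2, still allow a change.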
